A study of Mus musculus with 2 samples.

Results

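The genes described here are 4 of the Ifit family (Ifit1, Ifit2, Ifit3 and Ifit1bl1) with Rsad2 and Cmpk2, 6 of the 27998 genes in the feature table. They were chosen because Rsad2 and Ifit1bl1 differed most between the libraries in phagocytes, so their phagocyte ratios are given as a description and nothing is read from them. The values are unique molecular identifier (UMI) counts per gene and cell from droplet 3′ RNA sequencing of live, CD45-sorted cells of B16F10 tumors, a mouse melanoma line grown under the skin of C57BL/6 mice for 14 days. One group of hosts carried the floxed Usp18 allele alone (Usp18f/f, control), and the other carried it together with LysM-Cre (Usp18f/f LysM-Cre), in which Cre is expressed from the Lyz2 locus of myeloid cells. No further treatment is given in the labels. Cells of 4 tumors were pooled into 1 library per group, so no test between the groups is possible, and every interval below is a 95% interval for counting error alone. The limit given for a count of 0 is a floor of 3 counts, which is tighter than an exact 95% limit. UMIs of a gene are concentrated in few cells, so these intervals understate the uncertainty.

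Ifit proteins are interferon-induced, RNA-binding proteins made of tetratricopeptide repeats. Ifit1 binds viral RNA whose cap lacks the methyl marks of the host, and Ifit2 and Ifit3 form complexes with other family members. Rsad2 (viperin) is a radical SAM enzyme that turns CTP into a chain terminator of viral RNA polymerases, and Cmpk2 is a mitochondrial nucleotide kinase encoded next to it. In tumors these genes are used as markers of macrophages, monocytes and dendritic cells that have seen type I interferon. Usp18, the floxed gene, is itself interferon-induced; its product removes ISG15 from proteins and restrains signalling from the type I interferon receptor.

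The 6 genes lie at 2 loci in GRCm38. On chromosome 19, Ifit2 (34550694 to 34576419), Ifit3 (34583531 to 34588731) and Ifit1 (34640871 to 34650009) are on the plus strand and Ifit1bl1 (34592891 to 34601956) is on the minus strand. The relatives Ifit3b (34607970 to 34613401, plus strand) and Ifit1bl2 (34617049 to 34640743, minus strand) lie between them. On chromosome 12, Rsad2 (26442746 to 26456452, minus strand) and Cmpk2 (26469204 to 26479837, plus strand) stand head to head with 12763 bases between their start sites. The start sites of Ifit1 and Ifit1bl2 are only 146 bases apart.

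Promoter sequences are shown because neighbours in the cluster share or repeat them, and the levels of those neighbours are compared below. The 250 bases before each RefSeq start site (GRCm38.p6) were searched for GAAANNGAAA on either strand (TTTCNNTTTC on the other), the core of an interferon-stimulated response element. At least 1 match stood in the windows of Ifit1, Ifit3, Ifit1bl1 and Rsad2, against 3.46% of the 27025 genes with a window (2.98% of all 32851 promoter windows). Of the other interferon-stimulated genes listed for comparison below, 20 had a window and 7 a match. Ifit2 and Cmpk2 had no match in their windows. Capitals mark the matches, and each sequence is written 5′ to 3′ on its gene's own strand.
Ifit1, chr19:34640770-34640828, plus strand: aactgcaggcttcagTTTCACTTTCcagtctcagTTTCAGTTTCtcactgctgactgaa
Ifit1bl2, chr19:34640770-34640828, minus strand: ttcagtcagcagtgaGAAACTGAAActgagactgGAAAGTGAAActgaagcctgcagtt
Ifit3, chr19:34583358-34583431, plus strand: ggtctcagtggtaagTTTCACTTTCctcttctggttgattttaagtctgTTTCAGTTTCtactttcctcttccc
Ifit3b, chr19:34607754-34607827, plus strand: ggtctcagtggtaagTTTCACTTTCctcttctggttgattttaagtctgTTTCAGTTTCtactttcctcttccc
Ifit1bl1, chr19:34602048-34602087, minus strand: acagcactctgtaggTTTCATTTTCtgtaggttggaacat
Rsad2, chr12:26456548-26456587, minus strand: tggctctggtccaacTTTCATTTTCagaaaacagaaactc
The Ifit1 and Ifit1bl2 lines are the same bases read on opposite strands, and the lines of Ifit3 and Ifit3b are identical. The first match lay 104 bases before the start site of Ifit1, 156 before that of Ifit3 and 120 before that of Rsad2. For Ifit1bl1 it lay 104 bases before the start site of the window shown and 23 before a second start site. A match is a description of the letters and not evidence of binding.

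The control library held 7754 barcodes and 43412346 UMIs, and the other held 6063 barcodes and 48167632 UMIs. Of these, 6649 and 5454 cells were kept, and 8 barcodes occurred in both libraries. Cells were assigned to classes by marker transcripts, so each class name means "like". The mononuclear phagocytes, 1571 and 2365 cells, were split into macrophages (751 and 1173) and monocytes (820 and 1192). They expressed all 22 phagocyte markers, whose sum was 20367.5 and 21444.1 CPM (UMIs of a gene per 1000000 UMIs of the class). The summed levels of 12 marker lists of other cell types in them lay between 0.1 and 255.4 CPM, highest for cDC1 markers in both libraries (255.4 and 254.2 CPM). T-cell markers were at 25.6 and 52.0 CPM, and the part of such transcripts in the results was not tested. The targeted gene went against its label: Usp18 measured 18.5 CPM in control phagocytes and 95.4 CPM in those of the other library. The labels do not name the floxed exons, so 3′ counts need not show the deletion. Lyz2, which carries Cre, went with its label, at 9613 and 17.6 CPM. The second library is therefore called the library labelled knockout. The share of cells with Xist and no Y-linked transcript also differed, so the main results are given within both kinds of cells.

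In phagocytes all 6 genes were higher in the library labelled knockout. Their summed level was 133 CPM in the control library (127 to 140, 1631 UMIs) and 1509 CPM in the library labelled knockout (1492 to 1527, 29923 UMIs), 11.3-fold higher (10.8 to 11.9). A log2 ratio of CPM + 5 of at least 1 was found for 6 of 6 genes, and for 0.942% of the 11680 genes with at least 20 UMIs. The genes were picked on this contrast. Phagocytes were 23.6% of the kept control cells and gave 39.5% of all member UMIs of that library. In the library labelled knockout they were 43.4% of the cells and gave 77.4% of the member UMIs. Shares of UMIs also depend on depth, and median control depths were 6559 UMIs in phagocytes, 2398 in T cells and 1506 in B cells. By CPM the control sum ranged from 39.3 in plasmacytoid dendritic cells to 248 in neutrophils, with 133 in phagocytes and 121 in T cells.

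Among the Ifit genes, Ifit1 measured 27.5 CPM in control phagocytes (24.7 to 30.6) and 223 CPM in the library labelled knockout (216 to 230), 8.10-fold higher (7.25 to 9.07). Ifit2, which also promotes cell death when abundant, measured 31.0 CPM (28.0 to 34.3) and 242 CPM (235 to 249), a fold of 7.80 (7.02 to 8.68). Ifit3 went from 18.9 CPM (16.5 to 21.5) to 225 CPM (219 to 232), a fold of 11.95 (10.5 to 13.7). No pair of these intervals overlapped between the libraries, but the share of all genes without overlap was not computed. These genes were picked on this contrast, so nothing is read from it. Ifit1bl1 stood at only 4.00 CPM in control phagocytes (2.96 to 5.29, 49 UMIs) and at 90.3 CPM in the others (86.2 to 94.6, 1791 UMIs), the widest fold of the 6 genes at 22.6 (17.0 to 30.6).

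The enzymes encoded on chromosome 12 differed in the same direction. Rsad2 measured 41.3 CPM in control phagocytes (37.8 to 45.1) and 623 CPM in the library labelled knockout (612 to 634), 15.1-fold higher (13.8 to 16.5). Cmpk2 measured 10.5 CPM (8.72 to 12.4) and 106 CPM (101 to 110), a fold of 10.1 (8.44 to 12.2). By log2 ratio Rsad2 stood at rank 1 of 11680 genes, Ifit1bl1 at 3, Ifit3 at 4, Cmpk2 at 9, Ifit1 at 11 and Ifit2 at 12. Rsad2 made up 31.0% of the members' UMIs in control phagocytes and 41.3% in the library labelled knockout.

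The nearest measured genes on each side of the 2 loci did not show such a difference, but some lie far off and had few UMIs. Lipa, a lysosomal lipase gene 23220 bases from Ifit2, measured 293 CPM (284 to 303) and 289 CPM (281 to 296) in phagocytes, a fold of 0.98 (0.94 to 1.03). In monocytes alone Lipa was lower in the library labelled knockout, at 137 and 83.1 CPM. Pank1, 156931 bases off on the other side of the cluster, had a fold of 0.90 (0.59 to 1.39) from 39 and 57 UMIs. Rnf144a, 27492 bases from Rsad2, had one of 0.77 (0.55 to 1.08). Sox11, the nearest measured gene past Cmpk2 but 854427 bases away, was at 1.14 and 1.26 CPM from 14 and 25 UMIs (fold 1.10, 0.55 to 2.30).

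Other interferon-stimulated genes were also higher. Of 30 such genes listed for comparison, 29 were measured, and 20 had a log2 ratio of at least 1 in phagocytes, against 0.942% of all genes. The median of the 29 was 1.26 and all were above 0. The median of the 6 members was 3.05, which the choice of the members fixed, and that of all genes was -0.02. Isg15, the ubiquitin-like protein that Usp18 removes, had 70.1 and 705 CPM, a log2 ratio of 3.24 that lay within the members' range of 2.78 to 3.76, and Oasl1, an OAS-like protein gene, had one of 2.92. Irf9 was lowest of the list at 0.34 (50.6 and 65.5 CPM). In phagocytes with Xist 19 of the 29 had a log2 ratio of at least 1 (median 1.15), against 1.42% of all genes. In those with Y-linked transcripts 8 of the 29 did (median 0.63, 27 above 0), against 0.83% of all genes. The list was drawn up with earlier results of these libraries known.

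**Figure D1:**
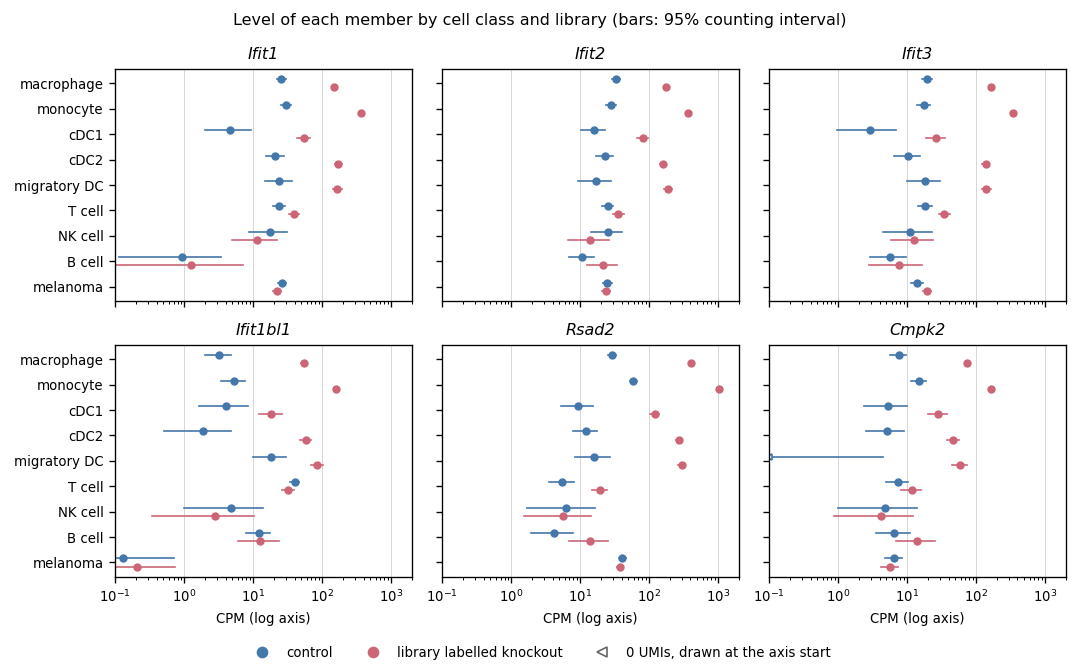
Level of each of the 6 genes (CPM, log axis) in 9 cell classes, control library in blue and library labelled knockout in red; bars are 95% Poisson intervals. In macrophages, monocytes and the 3 dendritic classes the red points lie to the right of the blue ones for all 6 genes, while in NK cells and melanoma-marker cells the points of most genes lie close together.

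Monocytes showed wider ratios than macrophages. The summed level was 155 CPM in control monocytes (144 to 166) and 2439 CPM in the library labelled knockout (2402 to 2476), a fold of 15.7 (14.6 to 16.9). In macrophages it was 118 CPM (111 to 126) and 1028 CPM (1011 to 1046), a fold of 8.69 (8.11 to 9.32). All 6 genes had a log2 ratio of at least 1 in either class, against 1.92% of genes in monocytes and 0.68% in macrophages. Both classes are parts of the phagocytes on whose ratio the genes were picked, so nothing is read from this count. The 2 subclasses thus lay closer together in the control library than in the other. Ifit1bl1 reached 161 CPM in monocytes against 54.0 CPM in macrophages of that library, from 5.25 and 3.15 CPM in control cells. The difference between the subclasses was not tested, and 229 and 367 phagocytes lay near the limit between them. Ly6c2, a transcript that interferon can raise, is 1 of the 8 monocyte markers. The split was not repeated without it, so its part in the wider monocyte ratios was not tested. In the library labelled knockout 905 monocytes had Xist only and 82 Y-linked transcripts only, against 670 and 242 macrophages. Within each kind the fold of the sum, given below, was also wider in monocytes, but the intervals with Xist overlapped. Ifit1 with Xist and Cmpk2 with Y-linked transcripts had the wider fold in macrophages.

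Within the phagocytes, the transcripts were held by a minority of cells. Cells were thinned to 2000 UMIs each, which left out 79 and 288 shallower cells, and the members with at least 1 UMI were counted. Of 1492 control phagocytes, 10.1% had any member (8.64 to 11.8), and of 2077 phagocytes in the library labelled knockout, 37.9% (35.8 to 40.1). At least 3 members were detected in 1.81% of the control cells (27 cells, 1.20 to 2.62) and in 15.2% of the others (315 cells, 13.6 to 16.8), a difference of 13.4 percentage points (11.7 to 15.1). All 6 were detected in 2 control cells (0.13%) and in 81 cells of the library labelled knockout (3.90%). Without thinning, at median depths of 6559 and 6119 UMIs, the shares with at least 3 were 4.90% and 26.9%.

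B cells were set beside the phagocytes as a lymphoid class, and whether their member UMIs are stray was not tested. After thinning to 1000 UMIs, at least 3 members were found in 1 of 1306 control B cells (0.08%). Of the library labelled knockout 0 of 410 B cells had them, which allows a share of up to 0.732%. Phagocytes thinned alike had 0.91% and 12.3%. Any member was found in 3.45% and 5.37% of the B cells and in 6.98% and 29.5% of the phagocytes. Before thinning the B cells had median depths of 1506 and 1761.5 UMIs.

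**Figure D2:**
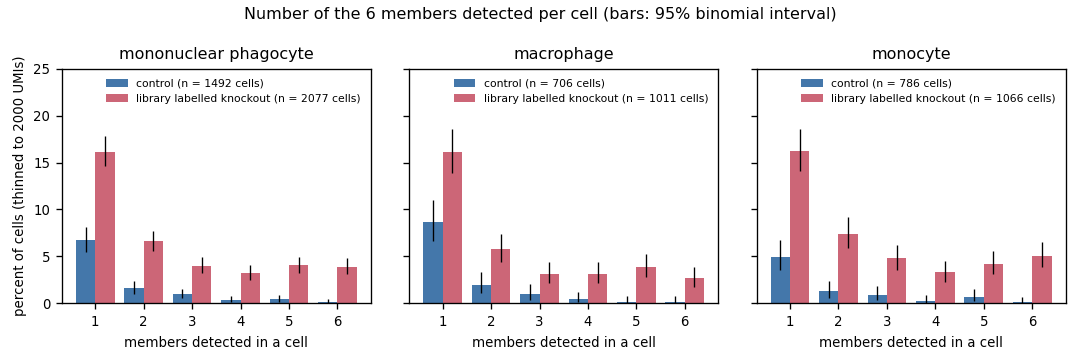
Percent of cells (y) in which 1 to 6 of the members were detected (x) after thinning to 2000 UMIs, in all phagocytes, macrophages and monocytes of each library; error bars are 95% binomial intervals. In all phagocytes the control bars go from 6.70% at 1 member to 0.13% at 6, and the bars of the library labelled knockout from 3 to 6 members lie between 3.23% and 4.04%.

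The distribution of the sum was skewed in both libraries. The median thinned phagocyte held 0 member UMIs in either library, the upper decile was 1 UMI among control cells against 9 in the library labelled knockout, and the highest cells held 43 and 117. The 10% of cells with most member UMIs, before thinning, held 88.6% of them in the control library and 82.0% in the other. Cells with at least 3 members held 60.6% of the thinned member UMIs of the control library, against 89.6% for the library labelled knockout. Their mean was 10.8 UMIs per cell in the former and 21.8 in the latter. In the remaining cells the mean was 0.13 and 0.45 UMIs. The sets are defined by the members themselves, so these means do not separate the share of high cells from the level within them.

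The 6 genes were often detected in the same cells. In the library labelled knockout, 55.2% of the 493 thinned phagocytes with Rsad2 also had Ifit3, against 7.83% of the 1584 without Rsad2. Of the 171 cells with Ifit1bl1, 85.4% had Rsad2 and 84.8% had Ifit3, against 18.2% and 13.2% of the cells without it. Genes of the separate loci were thus detected together as were neighbours: among 241 cells with Cmpk2, 80.1% had its neighbour Rsad2 and 71.4% had Ifit3. In the control library the members were also detected together, at lower shares, with Ifit2 in 41.8% of the 55 cells with Ifit1 and in 1.95% of those without. Among only 30 control cells with Cmpk2, 36.7% had Rsad2 and 16.7% had Ifit3, against 3.42% and 2.53% of those without.

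**Figure D3:**
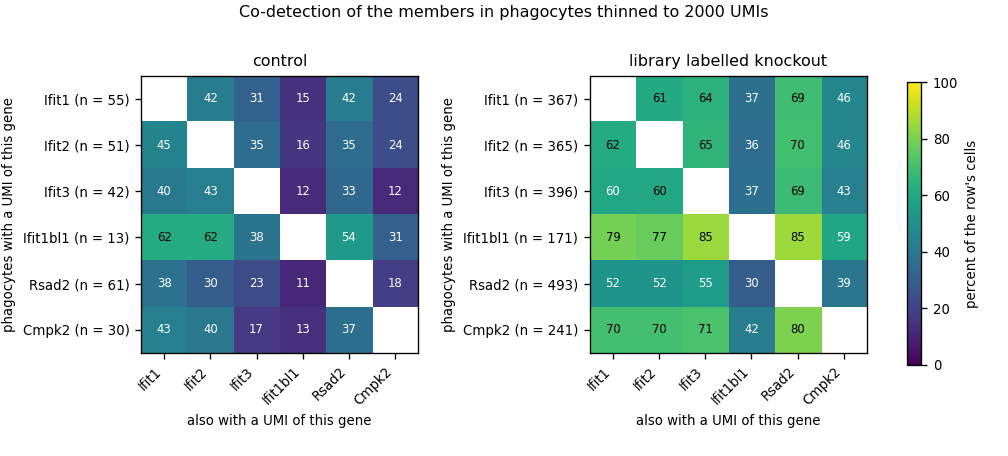
Percent of phagocytes with a UMI of the row's gene that also had a UMI of the column's gene, after thinning to 2000 UMIs, for each library; n is the number of cells with the row's gene. In the library labelled knockout the shares run from 29.6% for Ifit1bl1 among Rsad2 cells to 85.4% for Rsad2 among Ifit1bl1 cells.

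Cells with at least 3 members also carried Usp18. In the library labelled knockout 54.0% of the 315 such phagocytes had a Usp18 UMI, against 4.03% of the 1289 with no member. In the control library the shares were 25.9% of 27 cells and 2.68% of 1341. High cells of the library labelled knockout were more often monocytes (58.7% against 48.8%) and more often had Xist without Y-linked transcripts (81.0% against 68.3%). They had lower median mitochondrial shares (3.33% against 4.20%) and a lower median depth before thinning (6263 against 7083 UMIs). The part of these in the result was not tested, nor was that of Ly6c2 in the monocyte call.

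The ratio differed between phagocytes with Xist only and those with Y-linked transcripts only. With Xist (388 control cells and 1575 in the library labelled knockout), the summed level was 142 and 1843 CPM, a fold of 12.9 (11.7 to 14.3). With Y-linked transcripts (733 and 324 cells) it was 111 and 276 CPM, a fold of 2.49 (2.26 to 2.74). All 6 genes had a log2 ratio of at least 1 in the cells with Xist, against 1.42% of all genes, and 4 of 6 in the cells with Y-linked transcripts, against 0.83%. The exceptions were Ifit1, at 25.4 and 37.1 CPM (fold 1.46, 1.15 to 1.85), and Cmpk2, at 9.32 and 22.1 CPM (fold 2.37, 1.68 to 3.37). Both kinds of cells are parts of the phagocytes on which the genes were picked, so these counts are a description.

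Ifit3 measured 16.4 and 66.1 CPM in the cells with Y-linked transcripts, a fold of 4.04 (3.20 to 5.13), and Ifit1bl1 2.14 and 13.3 CPM, a fold of 6.20 (3.36 to 12.2). Rsad2 measured 31.2 and 77.4 CPM there, a fold of 2.48 (2.07 to 2.99), against 39.4 and 777 CPM and a fold of 19.7 (16.4 to 24.0) with Xist. At least 3 members were detected in 1.24% and 4.21% of the thinned cells with Y-linked transcripts, and in 2.68% and 17.4% of those with Xist. In the library labelled knockout Lyz2 was low in both kinds, at 8.02 CPM with Y-linked transcripts and 21.8 CPM with Xist, against 9297 and 10471 CPM in the control library. Monocytes were 25.3% of its phagocytes with Y-linked transcripts and 57.5% of those with Xist.

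Within monocytes alone the folds were 13.95 (12.2 to 16.1) with Xist and 6.08 (5.23 to 7.06) with Y-linked transcripts. Within macrophages they were 11.3 (9.78 to 13.04) and 2.0 (1.76 to 2.27), and Ifit1 was at 24.2 and 26.5 CPM in macrophages with Y-linked transcripts (fold 1.10, 0.81 to 1.48). Usp18 was 6.28-fold higher with Xist and 1.73-fold higher with Y-linked transcripts. Each kind of cell can come from few mice of the pool, so sex and single mice cannot be told apart, and the difference between the kinds was not tested.

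**Figure D4:**
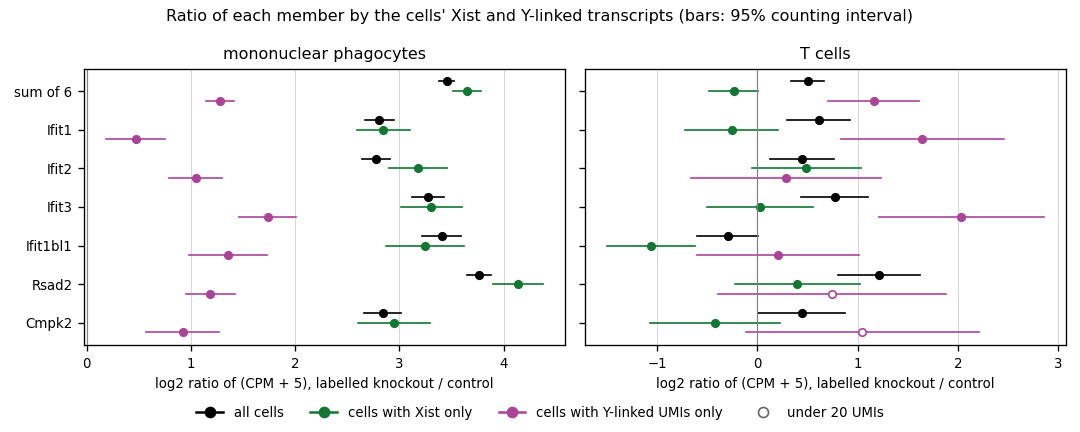
Log2 ratio of CPM + 5, library labelled knockout over control, for the sum and for each gene in phagocytes (left) and T cells (right), in all cells, cells with Xist only and cells with Y-linked UMIs only; bars are 95% counting intervals and open points rest on under 20 UMIs. In phagocytes the points of cells with Y-linked UMIs lie between 0.47 and 1.74 and those of cells with Xist between 2.85 and 4.14, while in T cells the Ifit1bl1 point of cells with Xist lies at -1.06.

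The members' sum was also higher in the conventional and migratory dendritic classes of the library labelled knockout. In cDC2, a class that presents antigen to CD4 T cells, the sum was 72.9 CPM in the control library (61.9 to 85.2) and 845 CPM in the library labelled knockout (805 to 886), a fold of 11.6 (9.84 to 13.7). Rsad2 measured 12.1 and 269 CPM there, a fold of 22.3 (15.1 to 34.5). In cDC1, which cross-present antigen to CD8 T cells, the sum was 42.0 CPM (32.9 to 52.9) and 329 CPM (301 to 358), a fold of 7.82 (6.10 to 10.2). In both classes the genes with a log2 ratio of at least 1 were 6 of 6, against 1.52% of all genes in cDC2 and 1.21% in cDC1. In cDC2 with Xist (40 and 172 cells) the sum was 92.3 and 956 CPM, and in cDC1 with Y-linked transcripts (101 and 24 cells) it was 48.6 and 142 CPM. A single cell held 22.3% and 12.8% of the member UMIs of cDC2, and 26.4% and 27.1% of those of cDC1.

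Migratory dendritic cells (128 and 153) had 92.8 and 939 CPM, a fold of 10.1 (8.02 to 12.9), with 6 of 6 genes at a log2 ratio of at least 1 against 4.89% of all genes. Cmpk2 had 0 UMIs in the control cells and 66 in 8 cells of the library labelled knockout (58.4 CPM). In migratory dendritic cells with Xist (21 and 106) the sum was 390 and 1198 CPM, a fold of only 3.07 (2.26 to 4.27), and the log2 ratios of Ifit3 (0.71) and Ifit1bl1 (0.67) were under 1. A single control cell, which had Xist, held 40 member UMIs, 51.9% of those of its class. The 21 control cells with Xist held 43, so their level and the folds from it rest largely on that cell. With a gate margin of 3 times, which left 98 and 93 cells, Ifit3 and Ifit1bl1 turned, with log2 ratios of -0.14 and -0.85. In the same cells Rsad2 had a log2 ratio of 1.55, against 3.87 in the whole class.

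Plasmacytoid dendritic cells, known as producers of type I interferon, numbered 113 and 63 and had 39.3 and 57.0 CPM of the sum, a fold of 1.45 (0.71 to 2.91) from 20 and 17 UMIs. Ifit3 and Ifit1bl1 had 0 UMIs there in both libraries, for which the floor of 3 UMIs is 5.90 and 10.1 CPM. Neutrophils were 483 cells in the control library and only 29 in the library labelled knockout. Their sum was 248 CPM (209 to 292) and 1367 CPM (1084 to 1701), a fold of 5.50 (4.13 to 7.28) that rests on 80 UMIs in the library labelled knockout. Ifit2 had 1 UMI in control neutrophils, where Rsad2 made up 63.9% of the member UMIs.

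Outside the myeloid and dendritic classes the folds of the sum lay between 0.73 and 1.78. In T cells it was 121 CPM in the control library (111 to 131) and 173 CPM in the library labelled knockout (159 to 188), a fold of 1.43 (1.27 to 1.62). Only Rsad2 of the 6 genes had a log2 ratio of at least 1 there, at 5.51 and 19.4 CPM, against 0.457% of all genes. Subtracting 5% of free RNA with the profile of the whole library turned that ratio to -0.36. The T-cell sum was 191 and 161 CPM in cells with Xist, a fold of 0.84 (0.71 to 1.01), and 69.8 and 162 CPM in those with Y-linked transcripts, a fold of 2.32 (1.64 to 3.23).

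In NK cells the sum was 69.6 CPM (50.6 to 93.5) and 50.8 CPM (35.6 to 70.3), with overlapping intervals. Only Ifit2 passed 20 UMIs there, at 25.3 and 14.1 CPM, and 0 of 1 genes measured had a log2 ratio of at least 1, against 1.94% of all genes. B cells had 40.2 CPM (32.2 to 49.7) and 71.4 CPM (53.9 to 92.7), a fold of 1.78 (1.24 to 2.51), with 1 of 4 measured genes, Rsad2, at a log2 ratio of at least 1 against 0.393% of all genes. It rests on 9 and 11 UMIs.

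Cells with melanoma markers, which the CD45 sort was set to leave out, numbered 151 and 374. They had 113 CPM (106 to 121) and 110 CPM (103 to 116) of the sum, a fold of 0.97 (0.89 to 1.06). None of the 5 measured genes had a log2 ratio of at least 1, against 0.182% of all genes. With a mitochondrial limit of 5%, which left 28 and 230 cells, the log2 ratio of Ifit1 went from -0.21 to 2.99, that of Ifit3 from 0.38 to 1.81 and that of Rsad2 from -0.10 to 1.34. With doublets kept, that of Ifit1 was 1.05. Their median depths were far apart, at 50932 and 3028 UMIs, and a single cell held 39.2% and 23.6% of the member UMIs.

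Ifit1bl1, alone of the 6 genes, had higher levels in control T cells and B cells than in control phagocytes. In the control library its level was 40.3 CPM in T cells (34.7 to 46.6) and 12.2 CPM in B cells (7.94 to 17.8), against 4.00 CPM in phagocytes. It supplied 33.5% of the member UMIs of control T cells and 3.0% of those of control phagocytes. In melanoma-marker cells only 1 and 2 UMIs were found (0.13 and 0.20 CPM), although the other 5 genes were present there. The order of its control levels, from T cells through migratory dendritic cells (18.1 CPM, 10.1 to 29.8) and B cells to phagocytes, had overlapping intervals, among these 4 classes, only between migratory dendritic cells and B cells.

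In control T cells its transcripts were spread thinly. There 183 Ifit1bl1 UMIs came from 157 cells, 86.6% of which held a single UMI, and no cell held more than 4. Ifit2 was spread alike, with 114 UMIs in 107 control T cells, 93.5% of them with a single UMI. In control phagocytes 49 Ifit1bl1 UMIs came from 31 cells, a mean of 1.58 per cell. In phagocytes of the library labelled knockout 1791 UMIs came from 276 cells, a mean of 6.49 per cell. Of the control T cells with Ifit1bl1, 26.8% had another member, against 14.0% of those without. For Ifit2 these shares were 15.9% and 17.3%. In control phagocytes 80.6% of the cells with Ifit1bl1 had another member, against 19.0% of the rest. In the phagocytes of the library labelled knockout 97.1% of the cells with Ifit1bl1 had another member, against 48.9% of the rest. All these values are before thinning, at median depths of 2398 UMIs in control T cells and 6559 in control phagocytes. Depth thus differed between the classes and can differ between cells with and without Ifit1bl1. Its part in these shares was not tested.

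Between the libraries Ifit1bl1 in T cells was 40.3 and 32.0 CPM, a fold of 0.79 (0.62 to 1.01), and its log2 ratio of -0.30 turned to 0.09 without the gate margin. In T cells with Xist it was lower in the library labelled knockout, at 62.3 and 27.2 CPM, a fold of 0.44 (0.31 to 0.63), and in those with Y-linked transcripts it was 31.4 and 37.1 CPM (fold 1.18, 0.56 to 2.25). Among T cells with Cd8a or Cd8b1 and no Cd4 the fold was 0.88 (0.61 to 1.24), with Ifit3 at 2.83 (1.84 to 4.42) in the same cells. Among those with Cd4 alone it was 1.24 (0.68 to 2.22). Of the 50-base words in the last 500 bases of its transcripts, 9.09% also occur in Ifit1bl2, so counts from that stretch are uncertain.

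The Ifit genes outside the 6 members were also measured. Ifit3b, whose upstream run is identical with that of Ifit3, measured 3.27 CPM in control phagocytes (2.33 to 4.45) and 55.9 CPM in the library labelled knockout (52.6 to 59.3), a fold of 17.1 (12.5 to 24.1). Of the 50-base words at the end of Ifit3, 14.9% also occur in Ifit3b, so counts from that stretch are uncertain. Ifit1bl2, which shares the bases between its start and that of Ifit1, had 3 and 5 UMIs in phagocytes (0.24 and 0.25 CPM), where Ifit1 had 337 and 4418. Its level was 25.9 CPM in control neutrophils (14.5 to 42.7, 15 UMIs) and 68.3 CPM in the 29 neutrophils of the library labelled knockout (18.6 to 175, 4 UMIs).

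Over 20 class and library sums, the members' log2 levels correlated with each other between 0.62 (Ifit1bl1 with Rsad2) and 0.94 (Ifit1 with Ifit3). The gene outside the 6 whose log2 level was most like the members' mean was Ifit3b (Pearson r = 0.97), among 12954 genes with at least 50 UMIs. Next came Aplnr (0.91, 72 UMIs in all), Isg15 (0.91), Lipg (0.90), Oasl1 (0.90), Oas1g (0.89), Lhx2 (0.87), Pou3f1 (0.87), Oas1a (0.85) and Usp18 (0.85). The points of a class share their cells' makeup and those of a library share its depth, so these are descriptions. Phagocytes enter only as macrophages and monocytes. Neutrophils and plasmacytoid dendritic cells enter from the control library only, as sums needed at least 100 cells.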

How the data were processed

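The authors deposited raw UMI counts per gene and barcode for 2 libraries, made with Cell Ranger 3.0.1 against mm10, per the submitters' processing notes. Values were not normalized. Barcodes needed at least 200 genes and no more than 10% mitochondrial UMIs, and Scrublet doublets (scanpy 1.11.5) were removed at 0.8% per 1000 barcodes (477 and 292). A cell took the class with the highest marker score if it held 2 or more of that class's markers and the score was 1.5 times the next; 11.2% of each library stayed unassigned. UMIs were summed per class and library. CPM carry exact Poisson intervals, shares Clopper-Pearson, differences of shares Newcombe, and folds exact conditional intervals. Log2 ratios use a pseudocount of 5 CPM and genes with at least 20 UMIs. Alternatives covered the gate, joint Leiden clusters, filters, free RNA, the pseudocount and the thinning depth. Thinning drew UMIs without replacement. Xist-only cells had Xist and none of 4 Y-linked genes. Named genes were the members, other Ifit genes, bordering genes, 30 interferon-stimulated genes, label checks and the 10 most like genes. The members and lists were chosen with earlier results of these data known. Scripts were tested on simulated counts: for 200 of 27998 genes with set folds in phagocytes, 92.5% of the intervals held the true fold. The simulated counts were Poisson draws without spread between cells, so this checks the code and not the coverage in the real counts.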

Additional observations from a re-analysis of the deposited data

Results flagged for a closer look

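Ifit1bl1 in T cells with Xist and no Y-linked transcript was lower in the library labelled knockout, with a log2 ratio of -1.06 (-1.50 to -0.62) from 65 UMIs in each library. In phagocytes with Xist its log2 ratio was 3.24 (2.87 to 3.62). The gene thus had opposite directions in 2 cell classes of the same libraries. It was chosen for its phagocyte ratio, so that value is a description and supports nothing here. With 1 library per group the difference between the classes was not tested.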

How the results depend on the processing

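The log2 ratio of the summed level in phagocytes was 3.45. It was 3.56 with a mitochondrial limit of 5%, 3.65 in cells with Xist, 1.28 in cells with Y-linked transcripts and 3.76 without the 1% of cells with most member UMIs. The difference in the share with at least 3 members was 13.4 percentage points. It was 15.3 with the mitochondrial limit of 5%, 2.96 in cells with Y-linked transcripts, 11.4 after thinning to 1000 UMIs, 22.0 without thinning and 10.3 for at least 4 members. Of 40 measured pairs of gene and class, 26 had a log2 ratio of at least 1. The count was 7 of 18 with a gate margin of 3 times, 6 of 13 in cells with Xist and 4 of 6 in cells with Y-linked transcripts, where fewer classes kept 100 cells. These pairs include the phagocyte ratios on which the genes were picked. In the main setting the share of all genes at that ratio lay between 0.182% in melanoma-marker cells and 4.89% in migratory dendritic cells. In phagocytes it was 1.42% with Xist and 0.83% with Y-linked transcripts. For the gate margin of 3 times it was not computed. Of the ratios of at least 1, those that turned were Ifit3 (-0.14) and Ifit1bl1 (-0.85) in migratory dendritic cells with the gate margin of 3 times, and Rsad2 in T cells with free RNA subtracted (-0.36). Ratios under 1 turned 18 times, 11 of them in melanoma-marker cells and 5 in T cells, such as Ifit1 (0.61 to -0.26) and Cmpk2 (0.44 to -0.42) in T cells with Xist. Ratios from under 20 UMIs were not counted. Of the 96 values of single members in phagocytes under the alternatives, 94 were at least 1, from 0.47 to 4.19. After seeing the data, Fcgr1 and Ly6c2 were left out of the gate, which gave 3.48 for the sum and 13.04 points for the share. The split into macrophages and monocytes was not repeated without Ly6c2. Thinning was also repeated after seeing the data, with another random draw, which gave 12.98 points. The cause of each shift was not tested. No paired analysis was possible because each group has 1 library. In NK cells (239 and 188) and plasmacytoid dendritic cells (113 and 63) most members had under 20 UMIs over both libraries, so their ratios were not counted as measured.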
